A study of Sus scrofa with 9 samples.

Results

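Zinc finger transcription factors are the largest class of DNA-binding regulators in mammals, and 221 genes of this class were described in back muscle of embryonic pigs. They were taken by symbol: the ZNF genes with a number, and the ZBTB, ZKSCAN, ZSCAN, ZFHX, ZEB, ZIC, GLI and GLIS families. The 221 genes are part of 19643 entries in the deposited table, of which 11179 carry a symbol. The muscle was the longissimus dorsi, which runs along the spine, and it was sequenced as 3 Tibetan, 3 Wujin and 3 Large White libraries. The Tibetan and Wujin pigs belong to indigenous Chinese breeds and the Large White pigs to an introduced breed, and no treatment or genetic change is stated for any of them. The stage is given as embryonic with no day, and separate animals behind the libraries are not stated. The p-values thus reflect the spread among these samples alone, and that spread may be technical. Wujin 1 is named by its column, while the remaining Wujin libraries, under a repeated header, are called Wujin a and Wujin b; the 217 members above 0 in either had 0 identical values between them.

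A C2H2 zinc finger is a short loop held by a zinc ion, and arrays of such fingers read DNA sequence. Many ZNF proteins carry a KRAB domain, which recruits the corepressor TRIM28 and with it histone methylation and deacetylation, and ZBTB proteins carry a BTB domain, which binds corepressors such as NCOR and BCOR. SCAN domains, found in ZSCAN and ZKSCAN proteins, join such factors in pairs. GLI proteins carry the Hedgehog signal into the nucleus, ZEB proteins repress epithelial genes and keep cells mesenchymal, and ZIC proteins act in the neural tube and in the dorsal part of the somites from which back muscle forms. The symbol rule also takes a few genes that are not transcription factors, such as ZBTB8OS, which is named for lying opposite ZBTB8 genes, ZNF106, an RNA-binding protein whose loss in mice leads to degeneration of motor neurons and muscle, and ZNF622, which acts in assembly of the large ribosomal subunit. Many ZNF genes are close relatives with similar sequence, so reads can be split between them and their values carry that uncertainty.

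The ZNF genes were the bulk, with 170 members, followed by 26 ZBTB, 8 ZSCAN, 4 ZKSCAN, 4 ZIC, 3 GLI, 3 GLIS, 2 ZFHX and 1 ZEB gene. Levels are in FPKM, fragments scaled to transcript length and to library size, and the number of reads behind a value is unknown. Most members were weakly expressed: the median of their mean levels over the 9 libraries was 2.58 FPKM, and 208 of the 221 were above 0 in every library. A mean of at least 1 FPKM, the minimum for testing, was reached by 183 members, of which 162 lay between 1 and 10 FPKM and 21 at 10 FPKM or more. ZNF106 had the highest mean, with 64.2, 54.4 and 80.6 FPKM in Tibetan 1, 2 and 3, 68.4, 91.0 and 97.8 FPKM in Wujin 1, a and b, and 125, 127 and 115 FPKM in Large White 1, 2 and 3. ZNF660, with a mean of 1.01 FPKM, lay just inside the minimum and ZNF232, with 0.973 FPKM, just outside it. Among the 183 tested members, 58 averaged under 1 FPKM in Tibetan, 4 in Wujin and 1 in Large White libraries, so many passed through the breeds in which they were higher. Over all 13106 tested entries these counts were 2471, 452 and 342. Among the 58 were ZNF521, GLI2, GLI3, ZBTB7C, ZNF704 and ZNF618, described below.

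The members took a smaller share of the Tibetan libraries than of the others. Their summed level was 0.123%, 0.115% and 0.121% of the FPKM total in Tibetan 1, 2 and 3, then 0.195%, 0.204% and 0.203% in the Wujin libraries (1, a, b). Large White 1, 2 and 3 had 0.210%, 0.205% and 0.226%. The median tested member stood at 1.64, 1.47 and 1.60 FPKM in the Tibetan libraries and at 3.05, 3.73 and 3.59 FPKM in the Wujin libraries. In the Large White libraries it stood at 3.84, 3.86 and 4.07 FPKM, with no overlap between Tibetan and the other breeds. Over all tested entries the median was 3.15 to 3.61 FPKM in Tibetan and 4.84 to 6.27 FPKM in Wujin libraries. In Large White libraries that median was 6.72 to 7.20 FPKM, so the whole table showed no overlap either. The 10 highest genes of each Tibetan library took 32.6% to 40.8% of its total, against 22.3% to 22.8% in Wujin libraries and 18.8% to 25% in those of Large White. FPKM values share 1 total, so each comparison is also given after median-ratio scaling, which divides each library by its median ratio to the geometric mean over 14562 entries above 0 everywhere. The size factors were 0.631 to 0.718 for Tibetan, 0.992 to 1.23 for Wujin, and for Large White libraries 1.31 to 1.37. After this scaling the median tested member stood between 2.28 and 2.33 in Tibetan, between 2.92 and 3.10 in Wujin and between 2.89 and 2.96 in Large White libraries, and the Tibetan libraries were still the lowest.

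Cell type markers moved with breed as well, and fewer cells of a type and less RNA per cell cannot be told apart in bulk tissue. The 6 connective tissue markers in the table, of 7 listed, summed to 319 to 356 FPKM in Tibetan, 3059 to 5569 FPKM in Wujin and 5299 to 5935 FPKM in Large White libraries. The 5 markers of dividing cells in the table, of 6 listed, summed to 1.10 to 1.86 FPKM in Tibetan, 57.1 to 77.6 FPKM in Wujin and 105 to 110 FPKM in Large White libraries, and the 4 listed cartilage markers to 0.669 to 1.02 FPKM in Tibetan, 34.4 to 41.1 FPKM in Wujin and 33.9 to 87.9 FPKM in Large White libraries. The 9 skeletal muscle markers in the table, of 10 listed, summed to 18160 to 60219 FPKM in Tibetan, 10614 to 11257 FPKM in Wujin and 7160 to 8701 FPKM in Large White libraries, although ACTA1, skeletal actin, is listed at 0 in Tibetan 2. A few abundant genes carry that sum, and its members went both ways in Tibetan against Large White muscle: ENO3, DES, MYH8 and TNNT1 were called higher by limma under both scalings, and MYH3, an embryonic myosin, MYMK, a myoblast fusion protein, and MYF5, a myogenic regulator, lower under both. MYH3, MYMK and MYF5 changed by -4.79, -4.31 and -3.11, while MYOD1 was called lower at -0.89 and changed by 0.06 after median-ratio scaling, and ACTA1 was not called. The part of these shifts in the results on zinc finger genes was not tested.

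Between Tibetan and Large White muscle, most tested zinc finger genes were lower in Tibetan libraries on the deposited scale, and lower calls outnumbered higher ones after median-ratio scaling as well. limma on log2(FPKM + 1), with Benjamini-Hochberg adjustment over all 13106 tested entries and calls at an adjusted p under 0.05, called 143 of the 183 members lower and 11 higher. Over all tested entries 63.2% were called lower and 13.0% higher, against 78.1% and 6.01% of the tested members. How far members that passed the minimum through other breeds add to these shares, or to those against Wujin, was not tested. The median fitted log2 change was -0.82 for the tested members and -0.77 for all entries, so the median member lay -0.05 from the median gene. The change of low genes is understated on this scale. Under median-ratio scaling, where the median over all entries was -0.01, 69 members were called lower and 36 higher, which is 37.7% and 19.7% of them against 33.0% and 32.4% of all entries, and their median change was -0.15.

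On the log2(FPKM + 1) scale, the members differed from the whole table more in the width of their distribution than in its centre. Most members are low, and the part of this scale in the narrower width was not tested. The distance of the centre depended on it: with a pseudocount of 0.1 the median member lay -0.16 from the median gene. On the deposited scale the lower and upper quartiles of the change were -1.24 and -0.46 for the tested members and -1.40 and -0.11 for all entries. After median-ratio scaling the quartiles were -0.64 and 0.22 for the members and -0.71 and 0.69 for all entries. A deposited change of at least 1 on the log2 scale was fitted for 6 members, 3.28% against 7.87% of all entries, and one of at most -1 for 72 members, 39.3% against 40.1%. A median-ratio change of at least 1 was fitted for 12 members, 6.56% against 18.2% of all entries, and one of at most -1 for 21 members, 11.5% against 17.8%. These counts are a description with no test. Among entries of 1 to 10 FPKM, where most members lie, the share called higher under this scaling was 26.0% and the share called lower 35.3%.

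**Figure D1:**
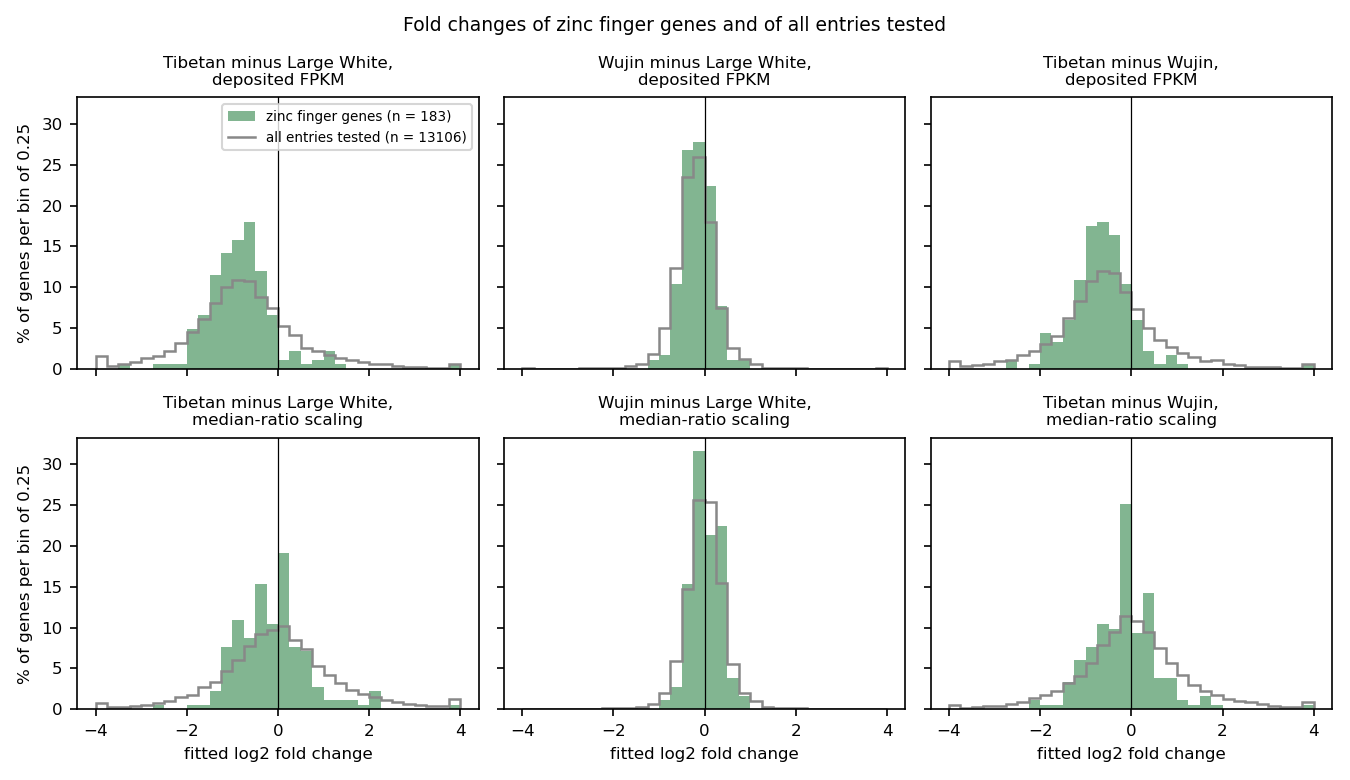
Distribution of the fitted log2 fold change of the 183 tested zinc finger genes (filled) and of all 13106 tested entries (line), as the percentage of genes per bin, for Tibetan against Large White, Wujin against Large White and Tibetan against Wujin (first minus second), with deposited FPKM above and median-ratio scaling below. Values beyond the axis are counted in the end bins, and the zinc finger genes show a thinner upper tail than all entries in both comparisons with Tibetan libraries.

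The Tibetan mean was the lowest, Wujin in the middle and Large White the highest for 114 of the tested members, 62.3% against 53.2% of all entries, and Tibetan was lowest with Wujin highest for 44, 24.0% against 18.3%. The reverse order, with Tibetan highest, Wujin in the middle and Large White lowest, held for 11 members, 6.01% against 9.59% of all entries. After median-ratio scaling these counts became 58, 38 and 31. They are 31.7%, 20.8% and 16.9% of the tested members, against 25.8%, 18.8% and 25.9% of all entries. Within breeds the members varied slightly less than all entries on the deposited scale, where differences of low genes are understated. The median SD of log2(FPKM + 1) over 3 libraries was 0.15 in Tibetan, 0.20 in Wujin and 0.11 in Large White libraries. Over all entries it was 0.19, 0.22 and 0.12. Wujin 1 was the lowest of its breed for 123 of the 183 members, 67.2% against 62.4% of all entries. Under median-ratio scaling it was the lowest for 88 of them, 48.1% against 41.6% of all entries.

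Calls differed with the level of a member. Under median-ratio scaling, of the 48 members with a mean of 1 to 2 FPKM 2 were called higher and 21 lower in Tibetan muscle, which is 4.17% and 43.8% against 19.0% and 38.3% of all entries at that level. Of the 86 members of 2 to 5 FPKM 13 were higher and 37 lower, 15.1% and 43.0% against 24.7% and 36%. Of the 28 members of 5 to 10 FPKM 14 were higher and 8 lower, 50.0% and 28.6% against 33.1% and 32.2%, and of the 21 members at 10 FPKM or more 7 were higher and 3 lower, 33.3% and 14.3% against 44.9% and 28.4%. The members higher in Tibetan muscle thus came mostly from the better expressed ones. All entries also showed more higher calls with level.

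**Figure D2:**
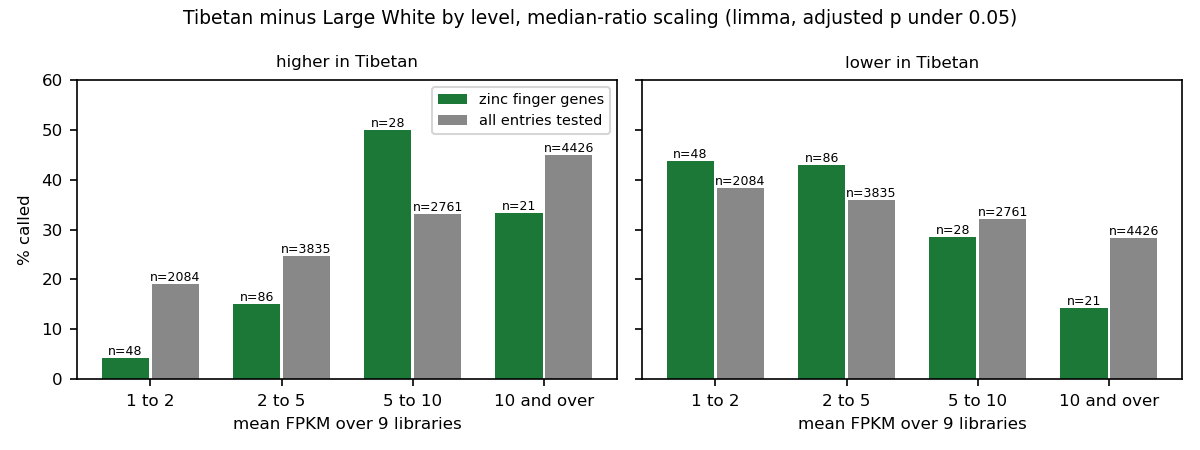
Percentage of genes called higher (left) and lower (right) in Tibetan against Large White libraries under median-ratio scaling, by mean FPKM over the 9 libraries, for zinc finger genes (green) and all tested entries (grey), with the number of genes above each bar. The share of zinc finger genes called higher is 4.17% at 1 to 2 FPKM and 50.0% at 5 to 10 FPKM.

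Lower calls outnumbered higher ones in every family with several tested members on the deposited scale, and in the ZBTB family the counts were near each other after scaling. Of 145 tested ZNF genes 114 were called lower and 8 higher in Tibetan against Large White muscle, and under median-ratio scaling 52 lower and 28 higher. Of 24 tested ZBTB genes 17 were lower and 3 higher, and under median-ratio scaling 8 lower and 7 higher, with a median change of 0.04. Of 5 tested ZSCAN genes 4 were lower and 1 not called, and under median-ratio scaling 3 were lower. Of 2 tested ZKSCAN genes 2 were lower, and 1 was lower after scaling. Over all tested entries 63.2% were lower and 13.0% higher as deposited, and 33.0% lower and 32.4% higher after scaling. A difference between families was not tested.

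**Figure D3:**
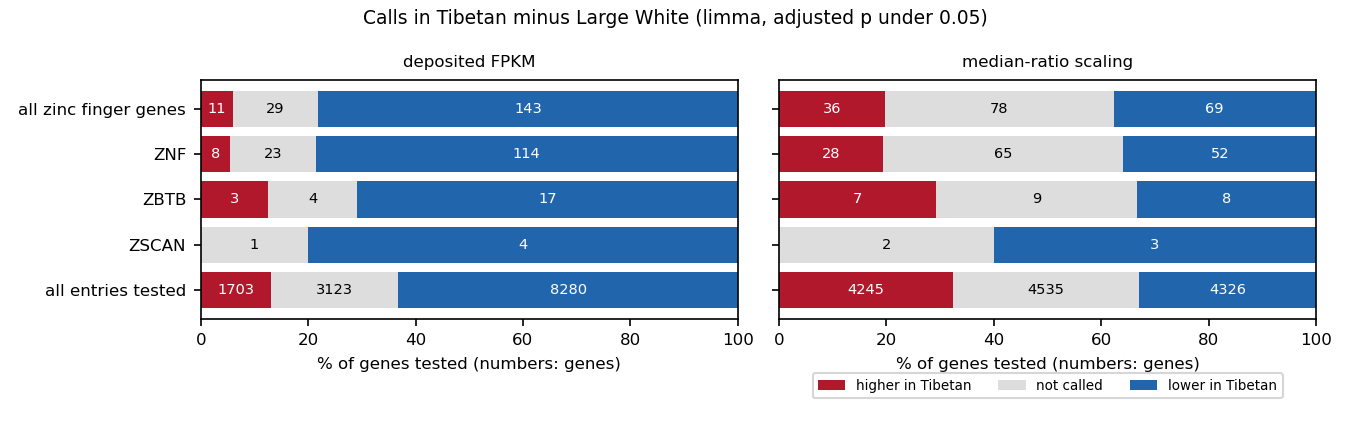
Percentage of tested genes called higher in Tibetan (red), not called (grey) and lower in Tibetan (blue) against Large White libraries, with the number of genes in each segment, for deposited FPKM (left) and median-ratio scaling (right). Of all zinc finger genes 11 were higher and 143 lower on the deposited scale, and 36 higher and 69 lower after scaling.

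The 11 genes called higher in Tibetan against Large White muscle were also called higher after median-ratio scaling. The same held for all 1703 entries called higher on the deposited scale, as the scaling raises Tibetan values against Large White ones. These 11 repeat calls are thus no separate support. ZBTB16, the promyelocytic leukaemia zinc finger repressor, stood apart from all others. It had 47.0, 36.4 and 52.5 FPKM in Tibetan 1, 2 and 3, 1.04, 0.684 and 0.704 FPKM in Wujin 1, a and b, and 1.48, 1.42 and 1.16 FPKM in Large White 1, 2 and 3. Every Tibetan library lay far above both other breeds, which were near 1 FPKM. limma's fitted log2 change against Large White was 4.28 ± 0.16 (SE, adjusted p = 7.47e-08), or 5.06 above the median of all entries, and 5.06 under median-ratio scaling.

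ZBTB7B, which directs T cells to the CD4 lineage and is a relative of ZBTB7A, had 7.88, 7.97 and 12.4 FPKM in the Tibetan libraries and 3.50, 1.87 and 4.07 FPKM in the Large White libraries. The change was 1.34 ± 0.25 (limma, adjusted p = 0.000937), and 2.15 after median-ratio scaling. ZBTB20, a repressor best known from hippocampus and liver, had 4.79, 6.76 and 3.70 FPKM in Tibetan, 3.83, 3.25 and 3.83 FPKM in Wujin and 1.76, 1.54 and 1.25 FPKM in Large White libraries. Here the Wujin libraries lay near the Tibetan ones and both lay above Large White without overlap. The change was 1.25 ± 0.18 (limma, adjusted p = 0.00022), and 1.96 after scaling.

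ZNF358, ZNF524 and ZNF768 were the well expressed genes of this group. ZNF358 had 72.0, 49.1 and 90.7 FPKM in Tibetan, 46.4, 37.5 and 34.7 FPKM in Wujin and 32, 30.5 and 28.2 FPKM in Large White libraries, with a change of 1.16 ± 0.21 against Large White. ZNF524 had 32.4, 33.9 and 38.1 FPKM in Tibetan, 19.3, 16.1 and 18.9 FPKM in Wujin and 14.6, 15.4 and 13.1 FPKM in Large White libraries, with a change of 1.22 ± 0.12. In both genes the Tibetan libraries did not overlap with either other breed. ZNF768 had 29.1, 24.1 and 35.0 FPKM in Tibetan and 13.8, 13.0 and 13.1 FPKM in Large White libraries, with a change of 1.07 ± 0.14. The changes of ZNF358, ZNF524 and ZNF768 were 2.11, 2.15 and 2.0 after median-ratio scaling, and their adjusted p from limma was 0.000792, 1.66e-05 and 0.000104.

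The 5 other higher genes changed by less, and they were chosen for naming after their values were seen. ZNF385A, an RNA-binding partner of p53, averaged 10.3 ± 1.75 FPKM in Tibetan and 5.09 ± 0.319 FPKM in Large White libraries (SD, n = 3 each), ZNF865 8.28 ± 1.25 and 4.40 ± 0.303 FPKM, and ZNF641 3.24 ± 0.419 and 1.59 ± 0.267 FPKM. Their fitted changes were 0.89, 0.77 and 0.71, and 1.74, 1.61 and 1.40 after median-ratio scaling. ZNF703, a corepressor studied in breast epithelium, averaged 5.83 ± 1.24 FPKM in Tibetan and 3.95 ± 0.105 FPKM in Large White libraries. It changed by 0.45 ± 0.16 (limma, adjusted p = 0.0303), and this call was lost without Tibetan 2 or 3 (0.34 and 0.40) and without Large White 1, 2 or 3 (0.46, 0.44 and 0.44). ZNF274, a KRAB protein that brings the methyltransferase SETDB1 to zinc finger gene clusters, averaged 1.62 ± 0.397 FPKM in Tibetan and 0.937 ± 0.181 FPKM in Large White libraries. It changed by 0.43 ± 0.16 (adjusted p = 0.0306), and that call ended without Tibetan 1 or 3 (0.37 and 0.35) and without Large White 2 or 3 (0.43 and 0.35). After median-ratio scaling ZNF703 changed by 1.26 and ZNF274 by 0.97.

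**Figure D4:**
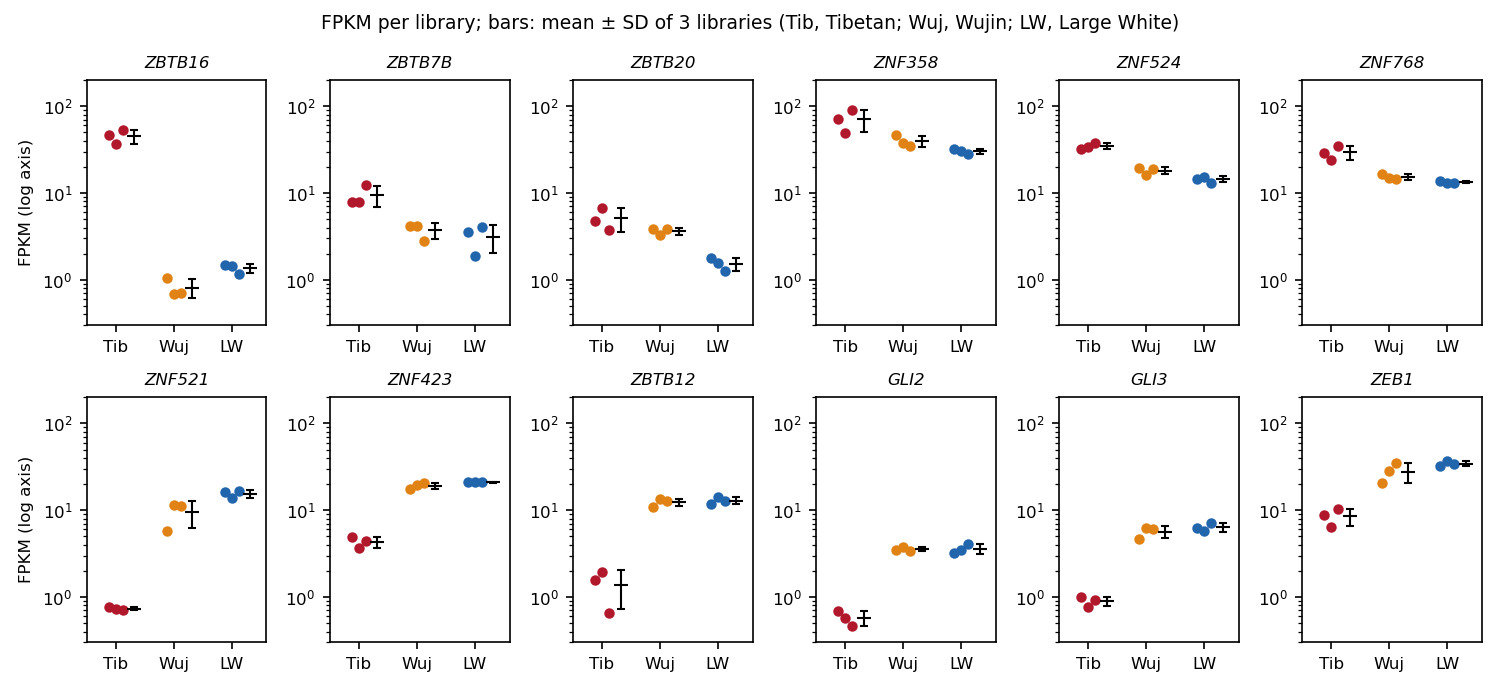
FPKM in each library on a log axis for 6 genes higher (top) and 6 genes lower (bottom) in Tibetan against Large White libraries, with Tibetan (red), Wujin (orange) and Large White (blue) points and bars for the mean ± SD of 3 libraries. The Tibetan points of ZBTB16 sit between 36.4 and 52.5 FPKM and those of ZNF521 between 0.703 and 0.759 FPKM, with no overlap with either other breed.

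The largest fall was that of ZNF521, a cofactor of immature blood, neural and bone-forming cells that inhibits early B-cell factors. It had 0.759, 0.725 and 0.703 FPKM in Tibetan 1, 2 and 3, 5.78, 11.6 and 11.2 FPKM in Wujin 1, a and b, and 16.0, 13.8 and 16.8 FPKM in Large White 1, 2 and 3. The Tibetan libraries lay close together and below every other library. The fitted log2 change against Large White was -3.25 ± 0.22 (limma, adjusted p = 1.65e-06), -2.48 relative to the median of all entries, and -2.60 after median-ratio scaling. ZNF423, its closest relative and a factor of commitment to the fat cell lineage, had 4.92, 3.68 and 4.37 FPKM in Tibetan, 17.4, 19.7 and 20.4 FPKM in Wujin and 20.9, 21.2 and 20.9 FPKM in Large White libraries. It changed by -2.05 ± 0.12 (adjusted p = 7.07e-07), and by -1.19 after scaling.

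ZBTB12 had 1.56, 1.93 and 0.655 FPKM in Tibetan libraries and 11.7, 14.1 and 12.8 FPKM in Large White libraries, a change of -2.58 ± 0.20 (limma, adjusted p = 3.93e-06). ZNF280C had 1.06, 1.72 and 0.978 FPKM in Tibetan and 10.1, 9.39 and 13.0 FPKM in Large White libraries, a change of -2.40 ± 0.25 (adjusted p = 2.05e-05). ZNF512 averaged 1.64 ± 0.253 FPKM in Tibetan and 9.43 ± 1.70 FPKM in Large White libraries, a change of -1.98 ± 0.14 (adjusted p = 2.36e-06). None of these genes overlapped between the 2 breeds, and their changes after median-ratio scaling were -1.85, -1.68 and -1.23.

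The GLI factors, the nuclear end of Hedgehog signalling, were lower in Tibetan against Large White muscle. GLI3, which acts mainly as the repressor form, had 0.994, 0.770 and 0.930 FPKM in Tibetan, 4.62, 6.27 and 6.05 FPKM in Wujin and 6.16, 5.83 and 7.20 FPKM in Large White libraries. GLI2, the main activator, had 0.684, 0.568 and 0.469 FPKM in Tibetan, 3.49, 3.79 and 3.41 FPKM in Wujin and 3.23, 3.49 and 4.13 FPKM in Large White libraries. The Wujin and Large White libraries overlapped in both genes and the Tibetan libraries lay below them. Against Large White, GLI3 changed by -1.96 ± 0.14 (limma, adjusted p = 2.21e-06) and GLI2 by -1.55 ± 0.12 (adjusted p = 4.51e-06), and after median-ratio scaling by -1.32 and -1.0.

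GLI1, a target of the pathway that is used as its readout, was below the minimum for testing, with 0.148, 0.337 and 0.173 FPKM in Tibetan, 0.498, 0.424 and 0.454 FPKM in Wujin and 0.363, 0.547 and 0.462 FPKM in Large White libraries. Of the 17 other Hedgehog genes listed 15 were in the table and 11 were tested, and all 11 were called lower in Tibetan against Large White muscle, as were 63.2% of all tested entries. Under median-ratio scaling 7 of the 11 were lower and 4 were not called, with 33.0% of all entries lower, and the median change over the 11 was -1.52 on the deposited scale and -0.71 after scaling. SMO, the membrane protein that starts the signal inside the cell, changed on the deposited scale by -2.57 ± 0.11, and the co-receptors CDON and BOC by -2.87 ± 0.27 and -2.43 ± 0.25 (limma, adjusted p = 1.42e-07, 1.17e-05 and 2.30e-05). Over all alternatives, the scalings among them, SMO ranged between -2.89 and -1.73, CDON between -3.46 and -2.08 and BOC between -2.84 and -1.63. PTCH1, the receptor and itself a target, changed by -0.46 ± 0.15, and this call ended without Tibetan 1 (-0.42) and without Large White 2 (-0.44), while after median-ratio scaling its change was 0.00. The ligand SHH is listed at 0 in every library but Large White 1, which had 0.0695 FPKM, and IHH in every library but Tibetan 1, with 0.0668 FPKM.

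GLIS2, a GLI-similar factor known from kidney, had 5.70, 3.75 and 4.52 FPKM in Tibetan, 20.6, 17.4 and 15.9 FPKM in Wujin and 15.6, 15.1 and 16.2 FPKM in Large White libraries. It changed by -1.57 ± 0.15 against Large White (limma, adjusted p = 1.34e-05), and by -0.71 after scaling. GLIS1 and GLIS3 stayed under 0.4 FPKM in every library, and GLIS1 is listed at 0 in all Tibetan libraries.

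ZEB1, the repressor of E-cadherin that marks mesenchymal cells, had 8.87, 6.42 and 10.2 FPKM in Tibetan, 20.5, 28.4 and 34.7 FPKM in Wujin and 32.4, 36.7 and 34.4 FPKM in Large White libraries. The Tibetan libraries lay below all others, and Wujin 1 was the lowest of its breed. The change against Large White was -1.92 ± 0.21 (limma, adjusted p = 2.86e-05), and -1.01 after median-ratio scaling. VIM and FN1, genes of mesenchymal cells, changed in the same comparison by -3.94 ± 0.14 and -4.15 ± 0.38 (adjusted p = 7.47e-08 and 9.94e-06). CDH1, which encodes E-cadherin, had 0.292, 0.352 and 0.350 FPKM in Tibetan, 2.69, 7.19 and 8.11 FPKM in Wujin and 1.42, 0.790 and 1.22 FPKM in Large White libraries. It was not called in Tibetan against Large White (-0.68, adjusted p = 0.0686), although every Tibetan library lay below every Large White library under both scalings. CDH1 was called lower with a pseudocount of 0.1 (-1.50), in the fit on these 2 breeds, with the replicate block and without Wujin 1 (-0.68 in each). It was called higher in Wujin against Large White (1.61, adjusted p = 0.0288), where ZEB1 was not called. The connective tissue markers given above moved in the same direction, and their part in the values of GLI2, GLI3, ZEB1, ZNF423 and ZNF521 was not tested.

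The large homeodomain factors ZFHX4 and ZFHX3 read differently. ZFHX4 had 1.05, 1.65 and 1.21 FPKM in Tibetan and 6.72, 7.74 and 8.39 FPKM in Large White libraries, a change of -1.91 ± 0.16 (limma, adjusted p = 6.52e-06), and -1.20 after scaling. ZFHX3 had 3.70, 2.19 and 2.23 FPKM in Tibetan, 2.80, 2.64 and 2.86 FPKM in Wujin and 2.52, 2.53 and 2.96 FPKM in Large White libraries. Its libraries overlapped on the deposited scale with a fitted change of -0.01, and after median-ratio scaling it was called higher by 0.71 (adjusted p = 0.00327).

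ZBTB33, ZBTB7C and ZNF148 were lower beyond the median of all entries. ZBTB33, the methyl-CpG reader Kaiso, averaged 1.46 ± 0.409 FPKM in Tibetan and 5.61 ± 0.271 FPKM in Large White libraries, a change of -1.44 ± 0.18, and -0.75 after scaling. ZBTB7C averaged 0.217 ± 0.118 and 2.31 ± 0.551 FPKM, a change of -1.44 ± 0.17, and -1.04 after scaling. ZNF148, a factor that binds GC-rich promoters, averaged 3.07 ± 0.422 and 8.84 ± 0.889 FPKM, a change of -1.28 ± 0.15, and -0.47 after scaling. ZBTB33, ZBTB7C and ZNF148 were called lower by limma under both scalings, with adjusted p of 8.12e-05, 5.26e-05 and 5.06e-05 on the deposited scale.

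The call of many tested members in Tibetan against Large White muscle depended on the scaling. Of those called lower on the deposited scale, 69 were also lower after median-ratio scaling, 69 were not called and 5 were called higher, and 20 that were not called on the deposited scale were called higher. The remaining 9 were called under neither. The 69, 69, 5 and 20 members are 37.7%, 37.7%, 2.73% and 10.9% of those tested, and the same calls held for 33.0%, 27.1%, 3.11% and 16.3% of all tested entries. The 5 with opposite calls all lay between 2.94 and 13.0 FPKM. ZNF143, an activator bound at many promoters, averaged 5.59 ± 0.749 FPKM in Tibetan and 8.06 ± 0.647 FPKM in Large White libraries, a change of -0.46 ± 0.16 (limma, adjusted p = 0.0265), and 0.39 after scaling (adjusted p = 0.0311). ZNF76, its close relative, averaged 5.89 ± 0.330 and 8.39 ± 1.12 FPKM, a change of -0.44 ± 0.13 (adjusted p = 0.0121), and 0.42 after scaling (adjusted p = 0.0128).

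The others with opposite calls were ZNF330, a nucleolar protein, the ribosome factor ZNF622, and ZNF79. ZNF330 averaged 9.21 ± 1.36 FPKM in Tibetan and 12 ± 0.875 FPKM in Large White libraries, a change of -0.36, and 0.54 after scaling. ZNF622 averaged 3.09 ± 0.117 and 4.09 ± 0.133 FPKM, a change of -0.31, and 0.45 after scaling. ZNF79 averaged 3.06 ± 0.173 and 4.34 ± 0.180 FPKM, a change of -0.40, and 0.37 after scaling. In all 5 the libraries of the breeds did not overlap on either scale, in opposite directions.

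These lower calls also rested on single libraries. That of ZNF143 ended without Tibetan 2 or 3 (-0.46 and -0.38) and without Large White 1 or 2 (-0.41 and -0.48), and that of ZNF330 without Tibetan 1 or 3 (-0.36 and -0.26) and without Large White 1, 2 or 3 (-0.38, -0.39 and -0.30). That of ZNF622 ended without any single Tibetan or Large White library (-0.33 to -0.29) and without Wujin b (-0.31). That of ZNF76 ended without Large White 3 (-0.35) and that of ZNF79 without Large White 1 or 2 (-0.38 and -0.39).

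The 20 members not called on the deposited scale and called higher after scaling were ZBTB7A, ZBTB17, ZBTB44, ZBTB47, ZFHX3, ZNF251, ZNF276, ZNF280D, ZNF335, ZNF354B, ZNF366, ZNF438, ZNF503, ZNF526, ZNF574, ZNF579, ZNF598, ZNF628, ZNF692 and ZNF777. ZBTB7A, a repressor of fetal globin genes, had 8.89, 10.8 and 12.8 FPKM in Tibetan and 7.86, 8.85 and 8.89 FPKM in Large White libraries, a change of 0.30 ± 0.14 (limma, adjusted p = 0.0817), and 1.19 after scaling. Without Tibetan 1 it was called on the deposited scale as well, at 0.42. ZBTB17, the MYC partner MIZ-1, had 5.92, 5.96 and 5.51 FPKM in Tibetan and 5.98, 5.58 and 6.62 FPKM in Large White libraries, a change of -0.05, and 0.79 after scaling (adjusted p = 0.000615). In both genes the breeds overlapped on the deposited scale and were apart after scaling.

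Several well known members called lower on the deposited scale were near 0 after scaling. ZNF106 changed by -0.89 ± 0.18 (limma, adjusted p = 0.00135), and by 0.08 after scaling. ZNF281, a factor of stem cell identity, averaged 3.57 ± 0.436 FPKM in Tibetan and 6.80 ± 0.371 FPKM in Large White libraries and changed by -0.78, and by 0.03 after scaling. ZNF217, an amplified gene of breast tumours, changed by -0.56, a call that ended without Tibetan 2 (-0.54) and without Large White 2 (-0.43), and by 0.02 after scaling. ZBTB38, which binds methylated CpG, changed by -0.55, a call that ended without any single Tibetan or Large White library (-0.61 to -0.50), and by 0.04 after scaling.

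**Figure D5:**
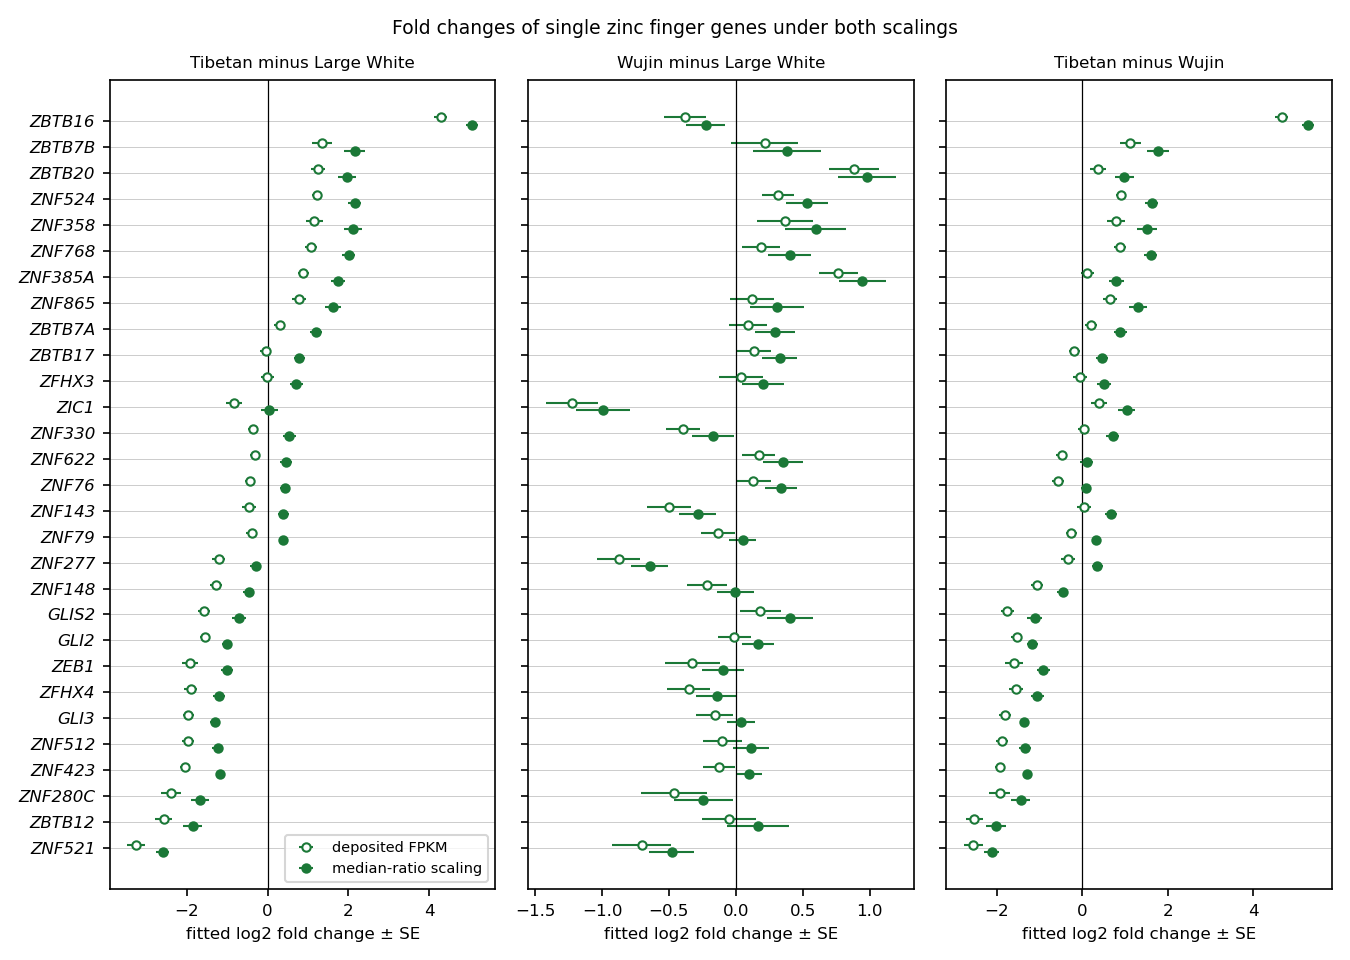
Fitted log2 fold change ± SE of 29 zinc finger genes in Tibetan against Large White, Wujin against Large White and Tibetan against Wujin (first minus second), with open points for deposited FPKM and filled points for median-ratio scaling. ZBTB16 lies at 4.28 and 5.06 in Tibetan minus Large White, ZNF521 at -3.25 and -2.60, and ZFHX3 at -0.01 and 0.71.

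Cofactors through which these factors act were listed as well. Over all tested entries 63.2% were called lower in Tibetan against Large White muscle as deposited, and 33.0% lower and 32.4% higher after scaling. Of 12 corepressor genes of the KRAB proteins 9 were in the table and tested, and 8 were called lower in Tibetan against Large White muscle, with a median change of -1.29, and 6 lower and 1 higher after scaling, with a median of -0.53. TRIM28 itself was not among these 9. CHD3 and CHD4, the nucleosome remodelling ATPases of the NuRD complex, changed by -2.98 ± 0.13 and -1.70 ± 0.10, and by -2.11 and -0.76 after scaling (limma, adjusted p = 1.56e-07 and 5.48e-07 on the deposited scale). MBD3, another subunit of NuRD, had 58.0, 34.2 and 67.7 FPKM in Tibetan and 43.2, 42.4 and 42.1 FPKM in Large White libraries, with overlapping libraries and a change of 0.26. It was called higher without Tibetan 2, at 0.55, and after scaling, at 1.22. Of 10 cofactors of BTB proteins and of CtBP 7 were tested, of which 4 were lower on the deposited scale, and 4 higher and 3 lower after scaling. NCOR1, a corepressor of BTB factors, changed by -0.32 ± 0.10, a call that ended without Large White 2 (-0.32), and by 0.57 after scaling.

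ZIC1 and ZIC4, which in medaka give the dorsal somite its identity, differed in the order of breeds on the deposited scale. ZIC1 had 4.74, 7.69 and 7.25 FPKM in Tibetan, 3.88, 4.41 and 5.89 FPKM in Wujin and 13.9, 10.9 and 12.1 FPKM in Large White libraries. Large White lay above both other breeds and these overlapped. ZIC4, its neighbour gene, was under the minimum for testing, with 1.27, 1.18 and 1.09 FPKM in Tibetan, 0.447, 0.205 and 0.571 FPKM in Wujin and 0.754, 0.546 and 0.687 FPKM in Large White libraries. Tibetan was thus the highest breed for ZIC4 and Large White for ZIC1 on the deposited scale. After median-ratio scaling ZIC1 stood at 6.59, 12.2 and 10.4 in Tibetan and at 10.6, 8.19 and 8.82 in Large White libraries, which overlapped. ZIC2 had 0, 0.0286 and 0.0855 FPKM in Tibetan, 0.0871, 0.0267 and 0 FPKM in Wujin and 0.348, 0.274 and 0.347 FPKM in Large White libraries, and was the highest in Large White.

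ZIC1 was called lower by limma in Tibetan against Large White muscle (-0.83 ± 0.19, adjusted p = 0.00338), with a change of 0.04 after median-ratio scaling. In Wujin against Large White muscle it was lower under both scalings, by -1.23 ± 0.19 (adjusted p = 0.0161) and -0.99 (adjusted p = 0.0398).

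The 38 members under the minimum had means of 0.00159 to 0.973 FPKM and were compared by overlap of libraries alone. Of these 23 were lower in every Tibetan than in any Large White library and 3 were higher, among them ZIC4 and ZNF648, while 12 overlapped. Of 6537 entries under the minimum, 33.9% were lower and 7.13% higher by the same reading. ZNF648 had 0.190, 0.275 and 0.411 FPKM in Tibetan and 0.0465, 0.0797 and 0 FPKM in Large White libraries, and is listed at 0 in every Wujin library.

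Wujin and Large White muscle differed in few zinc finger genes. On the deposited scale limma called 2 of the 183 higher and 7 lower, 1.09% and 3.83%, where 1.67% of all tested entries were called higher and 4.85% lower. The median change was -0.18 for the members and -0.20 for all entries. After median-ratio scaling 2 were higher and 2 lower, against 1.86% and 1.27% of all entries. At an unadjusted p under 0.05, 8 were higher and 42 lower on the deposited scale, where 6.0% of all tested entries were higher and 26.4% lower at the same threshold. This lean turned with the scaling: 30 were higher and 17 lower under median-ratio scaling, and 37 and 17 under quantile normalization. The shares over all entries were not computed for these 2 settings.

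ZBTB20 and ZNF385A were the 2 higher genes under both scalings. ZBTB20 changed by 0.88 ± 0.18 (limma, adjusted p = 0.0355), and by 0.98 after scaling. ZNF385A had 10.2, 8.10 and 9.90 FPKM in Wujin and 5.27, 4.72 and 5.28 FPKM in Large White libraries, a change of 0.77 ± 0.15 (adjusted p = 0.0291), and 0.95 after scaling. The Wujin libraries of both genes lay above all Large White libraries.

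ZIC1 and ZNF277 were lower under both scalings. ZNF277 had 11.1, 13.9 and 16.0 FPKM in Wujin and 28.5, 21.5 and 27.6 FPKM in Large White libraries, a change of -0.88 ± 0.16 (limma, adjusted p = 0.0264), and -0.65 after scaling. The Tibetan libraries, with 11.3, 10.6 and 9.72 FPKM, were near those of Wujin. The 5 genes lower on the deposited scale alone were ZBTB11, a factor of neutrophil development in zebrafish, at -0.75, ZNF385D at -0.69, ZNF322 at -0.68, and ZSCAN26 and ZNF565, both at -0.57. Of these, ZBTB11 had 1.74, 3.10 and 3.20 FPKM in Wujin and 4.66, 5.55 and 5.12 FPKM in Large White libraries, and ZNF385D had 4.48, 5.66 and 5.93 FPKM in Wujin and 9.94, 9.08 and 8.67 FPKM in Large White libraries. The libraries of all 5 did not overlap between the breeds.

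The calls between Wujin and Large White hung on single libraries. On the deposited scale, limma called 0 of the 183 without Wujin a, Large White 1 or Large White 3. At an unadjusted p under 0.05 limma then gave 7, 6 and 6 higher and 42, 37 and 24 lower. Without Large White 2 it called 0 higher and 1 lower, without Wujin 1 it called 0 higher and 4 lower, and without Wujin b 2 higher and 13 lower. Leaving out a Tibetan library, which enters only the shared spread, left 1 or 2 higher and 2 or 3 lower. The fitted changes moved less: over the omissions of a single library ZBTB20 ranged between 0.80 and 0.95, ZNF385A between 0.71 and 0.86, ZIC1 between -1.37 and -1.12 and ZNF277 between -1.0 and -0.74. Those of ZBTB11 ranged between -0.86 and -0.55, of ZNF385D between -0.76 and -0.59, of ZNF322 between -0.82 and -0.48 and of ZSCAN26 between -0.67 and -0.45.

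Most tested zinc finger genes were also lower in Tibetan than in Wujin muscle on the deposited scale, a comparison that shares the Tibetan libraries with the one above. On the deposited scale limma called 123 of the 183 lower and 6 higher, 67.2% and 3.28%, where 53.9% of all tested entries were lower and 13.8% higher. The median change was -0.61 for the members and -0.55 for all entries. After median-ratio scaling 63 were lower and 33 higher, 34.4% and 18.0%, where 30.4% of all entries were lower and 30.9% higher.

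The 6 higher genes were ZBTB16, ZBTB7B, ZNF524, ZNF768, ZNF358 and ZNF865. ZBTB16 changed by 4.67 ± 0.16 (limma, adjusted p = 6.64e-08) and by 5.28 after scaling, and ZBTB7B by 1.12 ± 0.25 (adjusted p = 0.0032) and by 1.77 after scaling. ZNF524, ZNF768, ZNF358 and ZNF865 changed by 0.90, 0.89, 0.79 and 0.65, and by 1.62, 1.60, 1.52 and 1.30 after scaling. ZBTB20, higher in both Tibetan and Wujin than in Large White muscle, changed by 0.36 between Tibetan and Wujin and was not called, but was called without Tibetan 3, at 0.53, and after scaling, at 0.98. ZIC1, at 0.39, was not called either, but was called without Tibetan 1, at 0.58, without Wujin b, at 0.53, and after scaling, at 1.04.

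Among the lowest genes in Tibetan against Wujin muscle were again ZNF521, at -2.55 ± 0.22, ZBTB12, at -2.52 ± 0.20, and ZNF280C, at -1.94. ZNF704, ZNF618 and ZNF428 joined them. ZNF704 had 0.326, 0.589 and 1.01 FPKM in Tibetan, 6.55, 6.29 and 6.49 FPKM in Wujin and 5.66, 5.41 and 4.74 FPKM in Large White libraries, and changed by -2.20 ± 0.16 (limma, adjusted p = 2.94e-06), and by -1.81 after scaling. ZNF618 had 0.952, 0.941 and 0.939 FPKM in Tibetan and 8.32, 6.23 and 5.77 FPKM in Wujin libraries, and changed by -1.99 ± 0.14, and by -1.53 after scaling. ZNF428 had 3.41, 2.71 and 4.37 FPKM in Tibetan and 26.0, 14.3 and 11.9 FPKM in Wujin libraries, and changed by -1.98 ± 0.27, and by -1.36 after scaling. In each the Tibetan libraries lay below every Wujin library, and Wujin 1 was the highest of ZNF618 and ZNF428.

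GLI3, GLI2, GLIS2 and ZEB1 changed by -1.80, -1.54, -1.75 and -1.59 between Tibetan and Wujin muscle, and all 4 were called lower by limma. Between Wujin and Large White muscle none of these 4 was called. ZNF521 had no overlap between Wujin and Large White libraries, with a change of -0.70 that was not called (adjusted p = 0.0752).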

How the data were processed

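RNA of longissimus dorsi from 3 breeds, with 3 libraries each, was sequenced by the submitters. The authors deposited 1 table of FPKM values per gene, per the file headers. The submitters' processing notes list TopHat without a version. For build, quantifier and depth, the sources used here give nothing. Gene IDs were paired with symbols through a table of pig gene names, and 11179 of 19643 entries had a symbol. The 13106 entries averaging 1 FPKM or more over 9 libraries were tested with limma 3.58.1 in R 4.3.3 on log2(FPKM + 1), with 1 mean per breed, a trended prior and Benjamini-Hochberg adjustment over all tested entries, and called at an adjusted p under 0.05. The procedure was tested on simulated data. Alternatives were a pseudocount of 0.1, no filter, median-ratio and quantile scaling, fits on 2 breeds only, single libraries left out and a replicate block. Replicate numbers did not pair the libraries.

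Named members are the 6 highest and 6 lowest called changes without overlap in each comparison, a list of well known members, and members with opposite calls under the scalings. ZNF106, ZNF274, ZNF565, ZNF641, ZNF703, the members with values just beside the minimum, the untested ZNF648, and the single genes named from the cofactor, Hedgehog and mesenchymal lists were chosen after their values were seen, as were ZNF385A and ZNF865 in Tibetan against Large White muscle. The members and all lists were chosen with earlier results of these data known. ZEB2, ZIC5, GLI4, ZFHX2, ZBTB4 and ZBTB18 were not analysed here, and the values of 1 further member are not reported here. ZBTB8OS can share reads with an overlapping gene, since use of strand in counting is not stated.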

Additional observations from a re-analysis of the deposited data

How the results depend on the processing

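In Tibetan against Large White muscle 36 members were higher and 69 lower under median-ratio scaling, and 44 and 56 under quantile normalization, against 11 and 143 as deposited. In Tibetan against Wujin muscle the counts were 33 and 63 under median-ratio scaling and 38 and 56 under quantile normalization, against 6 and 123. In Wujin against Large White muscle 7 were higher and 3 lower under quantile normalization, and the lower count was 2 under median-ratio scaling, 2 with a pseudocount of 0.1 and 1 in the fit on these 2 breeds, against 7. The median change of the members relative to all entries, -0.05 in Tibetan against Large White and -0.06 in Tibetan against Wujin, became -0.16 and -0.18 with a pseudocount of 0.1, -0.31 and -0.27 with no filter, and -0.14 and -0.14 under median-ratio scaling. Under quantile normalization it was -0.000136 against Large White, and with no filter it was -0.066 in Wujin against Large White.

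With single libraries left out, higher and lower counts ranged between 9 and 11 and between 126 and 150 in Tibetan against Large White, between 0 and 2 and between 0 and 13 in Wujin against Large White, and between 6 and 7 and between 107 and 138 in Tibetan against Wujin. The relative medians ranged between -0.07 and -0.04, between 0.01 and 0.04, and between -0.10 and -0.06 in the same order of comparisons.

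In Tibetan against Large White the sign turned under median-ratio scaling and quantile normalization for ZBTB17 (0.79 and 0.75), ZBTB38 (0.037 and 0.29), ZFHX3 (0.71 and 0.85), ZNF143 (0.39 and 0.34), ZNF217 (0.021 and 0.27), ZNF281 (0.034 and 0.063), ZNF330 (0.54 and 0.34), ZNF622 (0.45 and 0.55), ZNF76 (0.42 and 0.34), ZNF79 (0.37 and 0.46), NCOR1 (0.57 and 0.38) and PTCH1 (0.000272 and 0.29), and under median-ratio scaling for ZIC1 (0.043) and ZNF106 (0.079). In Tibetan against Wujin it turned under both for ZBTB17 (0.46 and 0.39), ZFHX3 (0.51 and 0.57) and ZNF281 (0.45 and 0.44). Uncalled changes near 0 turned sign without Large White 3 for ZBTB17 (0.00329) and ZFHX3 (0.05), without Tibetan 2 or 3 for ZFHX3 and without Tibetan 1 or Wujin 1 for ZNF143 against Wujin. Over all omissions ZFHX3 ranged between -0.19 and 0.088 against Large White and between -0.23 and 0.050 against Wujin, and ZNF143 between -0.11 and 0.18 against Wujin. Median-ratio scaling raises Tibetan values against both other breeds, as the Tibetan size factors are the lowest, so turns under it follow from the arithmetic. The cause of the other turns was not tested.

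The replicate block over Tibetan and Large White libraries gave 10 higher and 141 lower members with a relative median of -0.05. It ended the calls of ZNF274, ZNF330, ZNF622 and NCOR1, and with it CDH1 was called lower. Deviations of same-numbered libraries correlated at 0.013, -0.023 and -0.076, so the numbers are shared numbers only. The read depth behind these FPKM values is unknown, which limits the reading of the 38 untested members.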

Other observations

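Other C2H2 zinc finger families, outside the symbols described above, were listed for comparison, and 25 of 45 listed genes were tested. In Tibetan against Large White muscle 5 of these 25 were called higher and 15 lower by limma on the deposited scale, and 11 higher and 8 lower after median-ratio scaling. Of all tested entries 13.0% were higher and 63.2% lower as deposited, and 32.4% higher and 33.0% lower after scaling. KLF9, a Krüppel-like factor induced by glucocorticoid and thyroid hormone, had 14.7, 23.5 and 19.7 FPKM in Tibetan, 0.850, 0.451 and 0.899 FPKM in Wujin and 0.164, 0.243 and 0.203 FPKM in Large White libraries. It changed by 4.05 ± 0.18 against Large White on the deposited scale (limma, adjusted p = 1.74e-07), and ranged between 3.90 and 5.98 over all alternatives. Every Wujin and Large White library was under 1 FPKM. KLF9 thus passed the minimum only through the Tibetan libraries, where it was high, and its adjusted p is no separate support. EGR1, an immediate early gene, had 28.2, 54.8 and 54.6 FPKM in Tibetan and 11.6, 10.1 and 9.54 FPKM in Large White libraries, a change of 1.98 ± 0.27, and 2.91 after scaling. PLAGL1, an imprinted growth regulator, averaged 2.96 ± 0.723 FPKM in Tibetan and 45.5 ± 2.47 FPKM in Large White libraries, a change of -3.57 ± 0.20, and -2.73 after scaling. HIC1, a repressor with a BTB domain, averaged 2.21 ± 0.259 and 23.4 ± 1.19 FPKM, a change of -2.93 ± 0.11, and -2.12 after scaling. These 4 genes were chosen after their values were seen, and none of their Tibetan libraries overlapped with Large White libraries.

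Zinc finger genes often lie in clusters. In RefSeq for the pig assembly Sscrofa11.1, 201 protein-coding entries carried the symbol of a member, counted before repeated symbols were dropped. In that gene order, 73 members stood in 27 runs with at most 2 other protein-coding genes between neighbours. The run of ZNF146, ZNF565, ZNF567, ZNF382, ZNF529, ZNF260 and ZNF566 had 7 of 7 members lower in Tibetan against Large White muscle, and 2 lower after median-ratio scaling, where 63.2% and 33.0% of all tested entries were lower. All of these genes but ZNF146 averaged under 1 FPKM in Tibetan libraries and passed the minimum through other breeds. Close relatives in a run can share reads, and this run was chosen after its values were seen.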
